A study of Mus musculus with 10 samples.

Results

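The genes described here are 7 that carry glucose into the cell, interconvert pyruvate and lactate, and carry lactate out: the lactate dehydrogenase genes Ldha and Ldhb, the monocarboxylate carriers Slc16a1 and Slc16a3, the glucose carriers Slc2a1 and Slc2a3, and Bsg. All 7 of 7 were measured, among 19938 genes in all, and where a gene had several probe sets the one of highest mean signal was used. They were chosen by name with the mutant to control differences of these data in view, so their differences are a description and carry no test. The samples were periotic tissue, the otic vesicle that becomes the inner ear together with its surrounding mesenchyme, dissected from mice at embryonic day 12.5. It came from 5 conditional Tbx1 knockout mutants and 5 conditional Tbx1 heterozygous controls. All 10 embryos carried T-Cre, a recombinase that acts in the early mesoderm, so the controls are heterozygous in the cells that lack Tbx1 in the mutants. The otic epithelium is not of mesodermal origin, and the labels do not state its Tbx1 genotype. Tissue from both sides of an embryo was combined, and each embryo was hybridised to its own Affymetrix Mouse Gene ST 1.0 array.

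Lactate dehydrogenase is a tetramer built from the A subunit, encoded by Ldha, and the B subunit, encoded by Ldhb. Tetramers rich in A are known for tissues that turn pyruvate into lactate, and tetramers rich in B for tissues that oxidise lactate. Glucose enters many embryonic cells through GLUT1, encoded by Slc2a1, and neurons are known for GLUT3, encoded by Slc2a3. Lactate crosses the membrane through MCT1, encoded by Slc16a1, and MCT4, encoded by Slc16a3, which is known from highly glycolytic cells. Both carriers need basigin, the product of Bsg, to reach the membrane. Ldha, Slc2a1 and Slc16a3 are textbook targets of the hypoxia-inducible factors.

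Signals are on the log2 scale, on which a difference of 1 is a doubling of the signal. Signals of different probe sets are not comparable in level, so only differences between arrays are read. No member was at or below background in any array, background being the highest signal of genes on the Y chromosome in female embryos, 4.36. Tbx1, the targeted gene, read 8.40, 7.96, 7.58, 7.63 and 7.58 in mutants 1 to 5, against 8.89, 9.01, 8.84, 8.23 and 8.59 in controls 1 to 5. Its log2 difference was -0.88 ± 0.17 (SE), and its limma adjusted p over all probe sets was 0.451, or 0.0849 with the replicate number as a block. Whether its probe set lies inside the deleted part of the gene is not given here. By the signals of Xist and of Y-linked genes, 4 of the 5 mutant arrays and 3 of the 5 control arrays held female tissue and the others male tissue. The otic epithelium markers, 6 of 7 measured and all above background, had a mean of 7.19 to 7.97 in mutants and 7.56 to 7.71 in controls. The periotic mesenchyme markers, 7 of 7 measured and all above background, had a mean of 9.91 to 10.23 in mutants and 10.10 to 10.30 in controls.

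The Ldha signal was higher in all 5 mutants than in any control. Ldha (probe set 10553301) read 12.25, 12.24, 12.11, 12.04 and 12.11 in mutants 1 to 5, against 11.92, 11.83, 11.77, 11.87 and 11.72 in controls 1 to 5. In such bulk tissue, a different share of cells of a type and a different amount of RNA per cell cannot be told apart. The lowest mutant, 12.04, lay above the highest control, 11.92, so the groups did not overlap. The means were 12.15 ± 0.09 in mutants and 11.82 ± 0.08 in controls (SD, n = 5 each). The log2 difference was 0.33 ± 0.05 (SE), a 1.25-fold signal in the mutants. Ldha was the 1 member of 7 whose groups did not overlap, and this share was 1.27% over all genes in the higher direction and 0.552% in the lower. Since this contrast chose the members, nothing is read from that count. Within the groups, 12.8% of genes above background had a smaller SD than Ldha, against 90.3% for Slc2a1. The mean signal of Ldha was above that of 99.4% of genes, and that of Slc2a1 above 96.9%. These SDs include the differences between array numbers given below, and whether they depend on signal level was not tested.

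The Ldhb signal lay lower in most mutants, with overlap. Its probe set of highest mean (10462035) read 9.52, 9.66, 9.27, 9.31 and 9.53 in mutants 1 to 5, against 9.74, 9.62, 9.58, 9.65 and 9.65 in controls 1 to 5. In 4 mutants the signal was below the lowest control, and mutant 2 lay inside the control range. The log2 difference was -0.19 ± 0.08 (SE). A second Ldhb probe set (10549097) read 9.46, 9.41, 9.04, 9.01 and 9.04 in the mutants, against 9.19, 9.34, 9.41, 9.31 and 9.43 in the controls. Its log2 difference was -0.15 ± 0.10 (SE), and here 3 mutants lay below all controls while mutant 1 lay above them. The difference of the second probe set was -0.01 within arrays 1 to 3 and -0.35 within arrays 4 and 5. The corresponding values for the first were -0.17 and -0.23.

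The Ldhb probe sets differ in their place on the platform. Probe set numbers follow the genome for the other 6 members: the 10 annotated probe sets nearest in number to each were all on the chromosome of that member. Of the 10 nearest to 10462035, 9 were of genes on chromosome 19, whereas Ldhb lies on chromosome 6, and all 10 nearest to 10549097 were on chromosome 6. Which locus the probes of 10462035 match was not tested, so the values of 10549097 stand beside them.

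**Figure D1:**
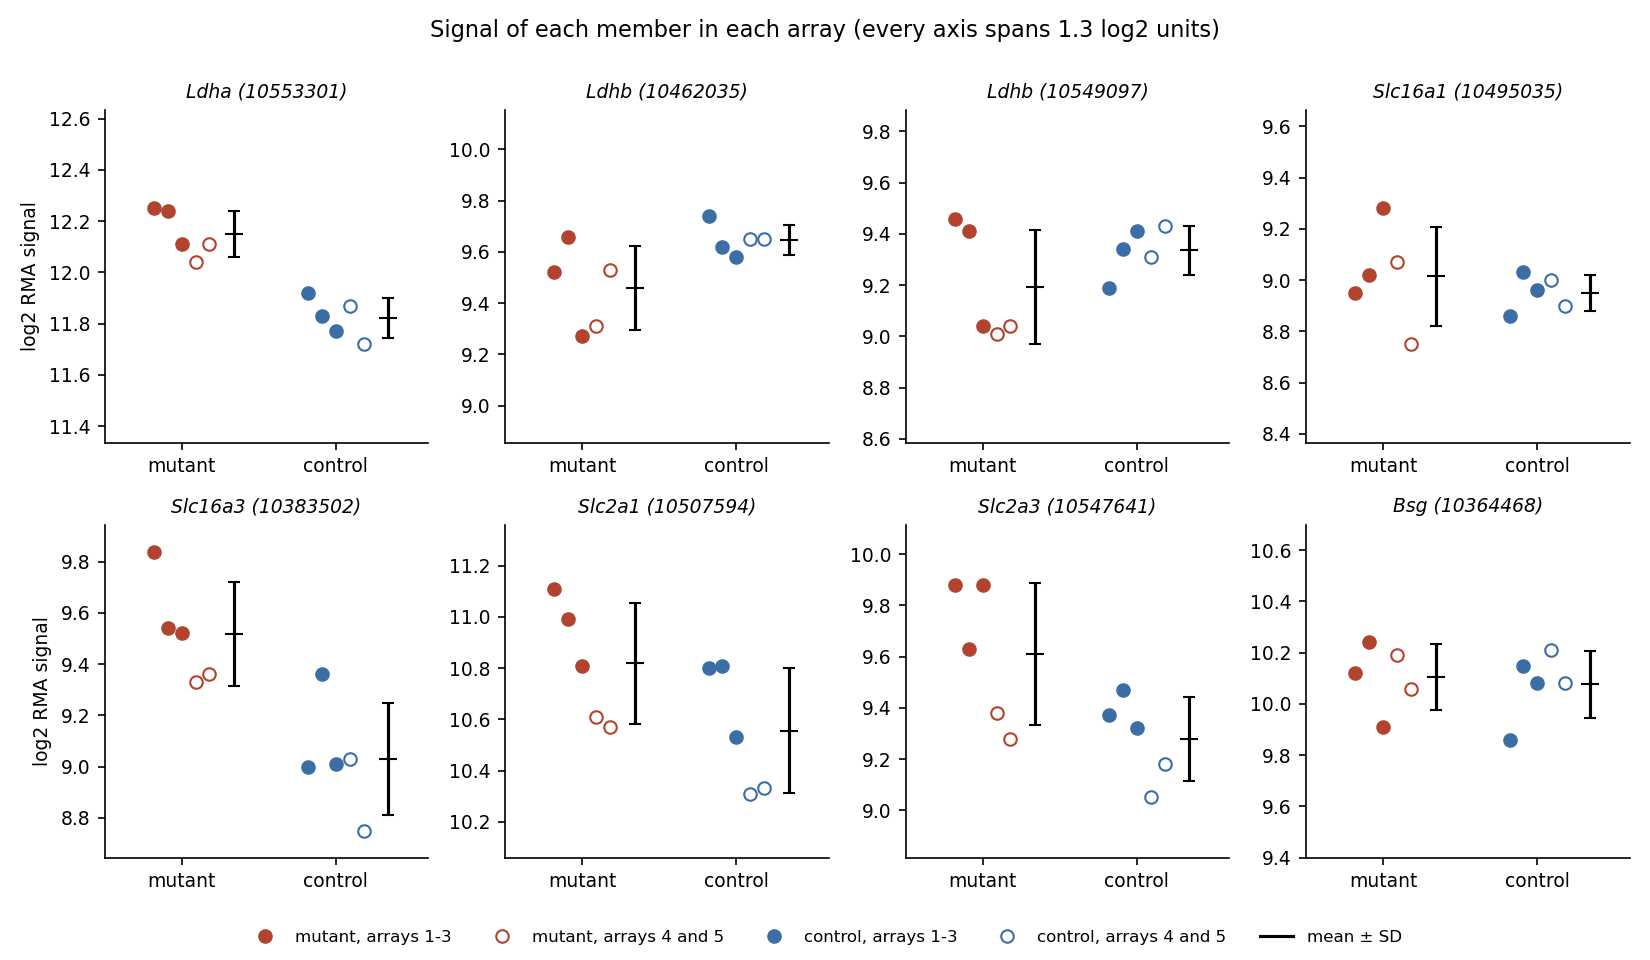
The log2 RMA signal of each member in the 5 mutant and 5 control arrays, with Ldhb shown for both of its probe sets. Filled points are arrays numbered 1 to 3, open points those numbered 4 and 5, and bars are the mean ± SD. The Ldha groups do not overlap, with 12.04 as the lowest mutant and 11.92 as the highest control, and in the Slc2a1 and Slc2a3 panels the open points lie below the filled ones of their group.

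The balance of Ldha against Ldhb did not overlap between the groups with either Ldhb probe set, by a gap that was wider than that of Ldha alone with the first and narrower with the second. The contrast, log2 Ldha minus log2 Ldhb within an array, was 2.73, 2.58, 2.84, 2.73 and 2.58 in mutants 1 to 5, against 2.18, 2.21, 2.19, 2.22 and 2.07 in controls 1 to 5. The lowest mutant was above the highest control by 0.36, against a gap of 0.12 for Ldha alone, and the means were 2.69 ± 0.11 in mutants and 2.18 ± 0.06 in controls (SD, n = 5 each). The difference of the group means was 0.52 with a standard error of 0.06, and it was 0.52 within the arrays numbered 1 to 3 and 0.51 within those numbered 4 and 5. With the second Ldhb probe set the contrast was 2.79, 2.83, 3.07, 3.03 and 3.07 in the mutants, against 2.73, 2.49, 2.36, 2.56 and 2.29 in the controls. The groups again did not overlap, with a difference of 0.47 and a standard error of 0.10. The gap between the lowest mutant and the highest control was 0.06, narrower than the 0.12 of Ldha alone. With this probe set the difference was less even between array numbers, at 0.37 within arrays 1 to 3 and 0.63 within arrays 4 and 5.

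A separation of this kind is common once Ldha is in the contrast. Replacing Ldhb by each other gene in turn, Ldha minus that gene put all mutants above all controls for 41.8% of genes. Replacing Ldha instead, the gene minus Ldhb did so for 7.23% of genes with the first Ldhb probe set and for 0.848% with the second. The absolute value of the contrast has no meaning, because it sets one probe set against another.

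**Figure D2:**
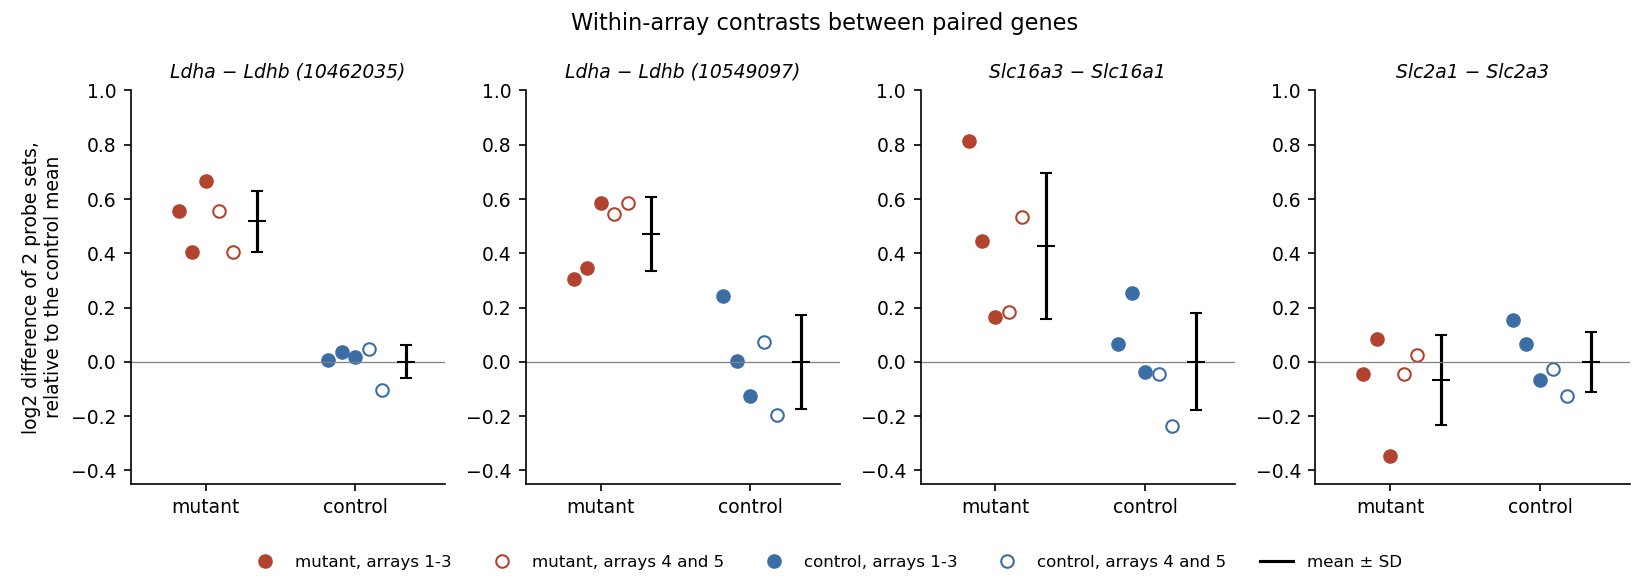
Within-array log2 differences between 2 probe sets, drawn relative to their control mean, in mutants and controls, with filled points for arrays numbered 1 to 3, open points for arrays 4 and 5, and bars for the mean ± SD. Ldha minus Ldhb separates the groups with either Ldhb probe set, by gaps of 0.36 and 0.06, whereas Slc2a1 minus Slc2a3 overlaps.

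Of the lactate carriers, Slc16a3 had a higher mean in the mutants, with overlap, while Slc16a1 differed by less than its standard error. Slc16a3 (probe set 10383502) read 9.84, 9.54, 9.52, 9.33 and 9.36 in mutants 1 to 5, against 9.0, 9.36, 9.01, 9.03 and 8.75 in controls 1 to 5. Control 2 reached the level of mutants 4 and 5, and 3 mutants lay above all controls. The means were 9.52 ± 0.20 in mutants and 9.03 ± 0.22 in controls (SD, n = 5 each). The log2 difference of 0.49, with a standard error of 0.12, was a 1.40-fold signal, and 0.346% of all genes had a higher one. Slc16a1 (probe set 10495035) read 8.95, 9.02, 9.28, 9.07 and 8.75 in the mutants, against 8.86, 9.03, 8.96, 9.0 and 8.90 in the controls. Its groups overlapped, and its log2 difference was 0.06 ± 0.09 (SE). Mutant 3 was its highest array: without mutant 3 the difference was -0.004, and within the arrays numbered 4 and 5 it was -0.04. The contrast of Slc16a3 minus Slc16a1 was higher in the mutants by 0.43 with a standard error of 0.15, and its groups overlapped.

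Bsg, whose product partners both carriers, did not differ beyond its spread. Bsg (probe set 10364468) read 10.12, 10.24, 9.91, 10.19 and 10.06 in mutants 1 to 5, against 9.86, 10.15, 10.08, 10.21 and 10.08 in controls 1 to 5. The log2 difference was 0.03 ± 0.08 (SE), and its sign turned without mutant 2 (-0.007), without control 1 (-0.03) and within the arrays numbered 4 and 5 (-0.02).

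Both glucose carriers had a higher mean in the mutants, with overlap between the groups. Slc2a1 (probe set 10507594) read 11.11, 10.99, 10.81, 10.61 and 10.57 in mutants 1 to 5, against 10.80, 10.81, 10.53, 10.31 and 10.33 in controls 1 to 5. The groups overlapped, and the arrays numbered 1 to 3 were the high ones in both. The log2 difference was 0.27 ± 0.12 (SE), a 1.20-fold signal. The 5 differences between arrays of equal number, called pair differences here, lay between 0.18 and 0.32. In the fit with the replicate number as a block, the standard error of Slc2a1 was 0.05, though the labels do not state that equal numbers are pairs. Slc2a3 (probe set 10547641) read 9.88, 9.63, 9.88, 9.38 and 9.28 in the mutants, against 9.37, 9.47, 9.32, 9.05 and 9.18 in the controls. Its log2 difference was 0.33 ± 0.12 (SE), with a standard error of 0.08 in the blocked fit, and its pair differences ran from 0.10 to 0.56.

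The glucose carriers also differed between array numbers. Slc2a1 was higher in the arrays numbered 1 to 3 than in those numbered 4 and 5 by 0.38 among mutants and by 0.39 among controls, and Slc2a3 by 0.47 and 0.27. For each of these genes every array numbered 1 to 3 lay above every array numbered 4 and 5 of its group, which held for 3.26% of all genes. The same numbers parted Fos, an immediate early gene. Fos read 8.95 to 9.0 in mutants 1 to 3 and 5.49 to 5.91 in mutants 4 and 5, and 8.82 to 9.08 in controls 1 to 3 and 5.49 to 5.61 in controls 4 and 5. The corresponding differences between array numbers were 0.29 among mutants and 0.23 among controls for Slc16a3, and 0.12 and 0.05 for Ldha. What arrays of one number have in common is not in the labels, and the part of the array number in these signals was not tested. Each set of numbers holds both genotypes. Within arrays 1 to 3 the mutant minus control difference was 0.36 for Ldha, 0.51 for Slc16a3, 0.26 for Slc2a1 and 0.41 for Slc2a3. Within arrays 4 and 5 the same differences were 0.28 for Ldha, 0.46 for Slc16a3, 0.28 for Slc2a1 and 0.21 for Slc2a3.

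**Figure D3:**
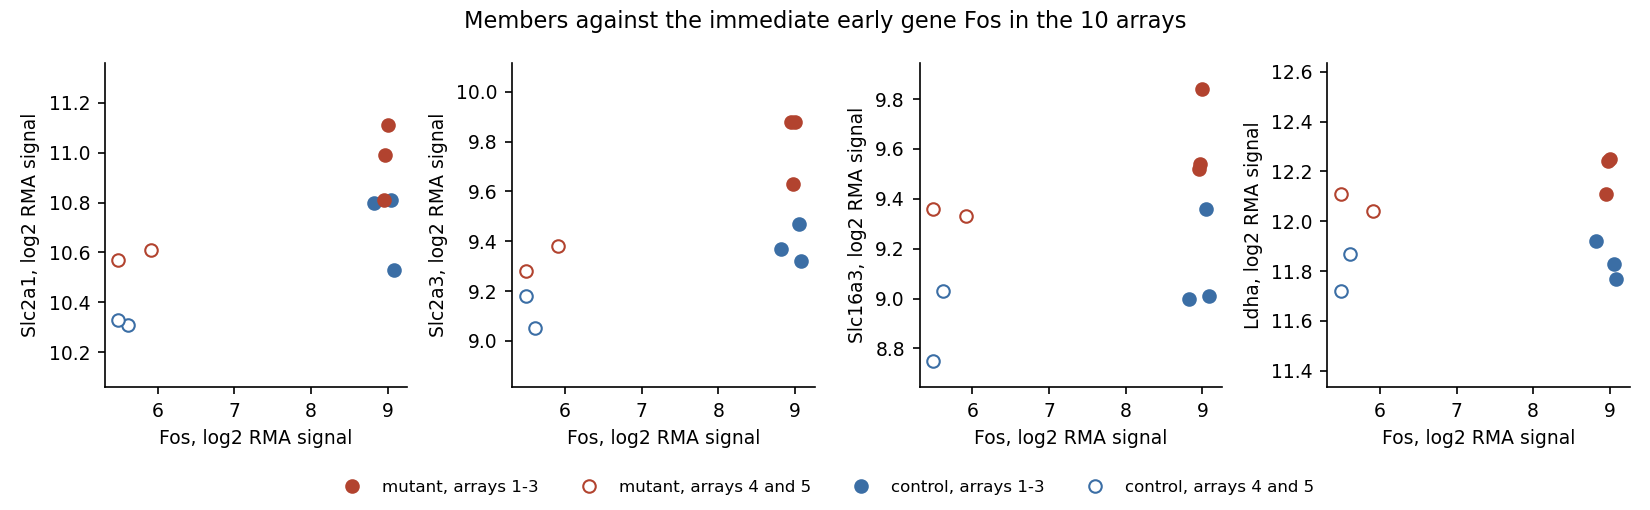
The log2 signals of Slc2a1, Slc2a3, Slc16a3 and Ldha against that of Fos in the 10 arrays, with mutants in red, controls in blue, arrays numbered 1 to 3 filled and arrays 4 and 5 open. Fos forms separate clusters, at 8.82 to 9.08 and at 5.49 to 5.91, and both glucose carriers are higher in the cluster of high Fos in each group.

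The members also varied among themselves within the groups. Deviations from the own group mean, over the 10 arrays, correlated at r = 0.82 (Spearman rho 0.87) between Slc2a1 and Slc2a3. With the mean of each array-number set removed as well, r was 0.22. Slc2a1 and Ldha correlated at 0.72 (rho 0.61), or 0.70 without the 2 arrays farthest from the median of Slc2a1, and at 0.62 with the set means removed. Slc2a1 and Slc16a3 gave 0.79 (rho 0.66), 0.61 without the 2 farthest arrays and 0.57 with the set means removed. Ldha and Ldhb varied in the same direction within the groups, at 0.67 (rho 0.60), although their group differences had opposite signs. With the second Ldhb probe set this was 0.40 (rho 0.38), and -0.17 without the 2 arrays farthest from its median. Ldhb and Slc16a1 varied in opposite directions, at -0.66 (rho -0.81), and at -0.85 with the set means removed, and with the second Ldhb probe set these were -0.09 (rho -0.20) and -0.56. These correlations describe 10 arrays that were normalised together.

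Over 17180 other genes above background, those most like Ldha in these deviations were Tmem198b (r = 0.953), Sema4c (0.952), Mtg2 (0.939), Ikbkb (0.926) and Polr3a (0.921). Their own log2 differences between mutants and controls lay between -0.19 for Tmem198b and 0.08 for Polr3a, against 0.33 for Ldha. The genes most like the Ldha minus Ldhb contrast were Dok2 (r = 0.933), Vpreb1 (0.933), Rtp4 (0.926), Fbxw10 (0.888) and Il17re (0.887), with differences of -0.13 to 0.13. These genes were picked as the highest of many on the same 10 arrays, so their r is a description.

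Cell type markers also differed between the arrays. The neuron markers, 6 of 6 measured and all 6 above background, had a mean log2 signal of 9.05 to 10.06 in mutants and 8.61 to 9.72 in controls, and all 6 had positive log2 differences. Mutant 5, highest in neurons and with hindbrain markers at 7.75 against 5.93 to 6.85 in the controls, had the lowest Slc2a3 and Slc2a1 of the mutants. Without mutant 5 the log2 differences were 0.42 for Slc2a3, 0.33 for Slc2a1 and 0.34 for Ldha. The red blood cell markers, 6 of 7 measured, read 9.46 to 10.07 in mutants and 9.47 to 10.85 in controls. Control 5 had their highest value, and also the lowest Ldha and Slc16a3 of all arrays. Without control 5 the log2 differences were 0.30 for Ldha and 0.42 for Slc16a3. Over the 10 arrays, as deviations from the group means, the red blood cell mean correlated at r = -0.71 (rho -0.76) with Ldha, at -0.73 (rho -0.82) with Slc16a3 and at -0.70 (rho -0.67) with Slc2a1. Without the 2 arrays farthest from the median of the marker mean these r were -0.83, -0.36 and -0.64, and without control 5 they were -0.61, -0.59 and -0.71. With the array-number means removed they were -0.66, -0.56 and -0.41. The otic epithelium mean correlated at -0.74 (rho -0.64) with Slc2a3, and at -0.44 both without the 2 farthest arrays and with the array-number means removed. With Slc2a1 it gave -0.63 (rho -0.60), -0.34 without the 2 farthest arrays and -0.63 with the array-number means removed. For Slc16a3 the same values were -0.61 (rho -0.55), -0.28 and -0.50. The endothelial mean correlated at 0.64 (rho 0.55) with Slc2a1, and at 0.41 without the 2 farthest arrays. These are among 70 pairs of a member and a marker list, picked after their values were seen, and they describe the same arrays. The largest r of the 70 were those of the immediate early gene mean, 0.91 with Slc2a1 and 0.89 with Slc2a3. That mean also reached 0.695 with Slc16a3. With the array-number means removed these r were 0.57, 0.11 and 0.28. The macrophage mean gave 0.72 with Slc2a3 and 0.69 with Slc2a1, or 0.05 and -0.08 with the array-number means removed. The cartilage markers, 5 of 5 measured, had a mean of 8.49 to 9.34 in mutants and 8.91 to 9.54 in controls, and all 5 had negative log2 differences. Among them Col2a1, the main cartilage collagen, was lower in every mutant than in any control, with -0.53 on the log2 scale (limma adjusted p = 0.569). The muscle markers, 5 of 5 measured, had a mean of 9.12 to 9.93 in mutants and 9.21 to 9.94 in controls, and all 5 had negative log2 differences, among them Myod1 at -0.34 and Myog at -0.38. The endothelial markers, 7 of 7 measured, had a mean of 8.68 to 9.13 in mutants and 8.80 to 8.98 in controls, and the macrophage markers, 6 of 6 measured, 6.61 to 7.16 in mutants and 6.85 to 7.26 in controls. The part of these cell types in the members' group differences was not tested.

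Among genes around the members, most glycolytic and hypoxia-inducible genes had positive log2 differences, the other carriers were mixed or mostly negative, and 0 passed the test. A total of 94 related genes in 8 lists was tested by limma with Benjamini-Hochberg adjustment over all probe sets, and 0 passed the threshold of 0.05 in either direction. Over all genes 2 passed (0.01%), both higher, Nr1h5 and Sycp1, which are named here after their values were seen. At an unadjusted p under 0.05 there were 20 of the 94 (21.3%), against 7.82% of all genes. The groups did not overlap for 5 of them in the higher direction (5.32%, against 1.27% of all genes) and for 0 in the lower direction (against 0.552%). The lists were written with earlier results of these data known, so these shares are descriptions. The median log2 difference of all genes was -0.002.

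Among the other lactate dehydrogenases, 3 of 3 measured, the median log2 difference was 0.01. Ldhc, the testis form, had -0.14 with a limma adjusted p of 0.645, and Ldhal6b had 0.11 with 0.745. Among 15 other monocarboxylate carriers and their partners the median was -0.02, with 7 members higher and 8 lower. Those of smallest p were Emb, encoding embigin, a relative of basigin, at 0.19 (limma adjusted p = 0.655), and Slc16a7, encoding MCT2, at 0.14 (0.628). Among 14 other glucose carriers the median was -0.08 and 10 were lower. Slc2a2, encoding GLUT2, had -0.24 with a limma adjusted p of 0.589, and Slc2a4, the insulin-responsive GLUT4, had -0.17 with 0.617. Some of these genes had low signals. Slc2a2 read 5.39 in mutants and 5.63 in controls, and Ldhc 5.25 and 5.40, below the array medians of 6.19 to 6.27. Slc2a7, Slc2a9 and Slc5a1 were also below those medians.

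Genes that regulate glucose uptake or the lactate dehydrogenase genes had a median log2 difference of -0.01 over 10 members. Txnip, an arrestin-like protein that lowers glucose uptake and promotes removal of GLUT1 from the membrane, had the lowest value. Txnip read 9.56 ± 0.16 in mutants and 9.84 ± 0.16 in controls (SD, n = 5 each), a log2 difference of -0.28 (95% interval -0.47 to -0.08) with a limma adjusted p of 0.569. Hif1a, the oxygen-regulated subunit of hypoxia-inducible factor, had 0.11 (interval 0.003 to 0.21), its groups did not overlap, and its limma adjusted p was 0.602. Hcar1, the lactate receptor, had -0.01 and Myc had -0.001.

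The steps around the members differed in size. The 15 glycolytic enzymes measured had a median log2 difference of 0.20, with 13 higher. Pgk1, phosphoglycerate kinase, had 0.36 (limma adjusted p = 0.252) and Pfkfb3, which makes an activator of phosphofructokinase, 0.40 (0.464). For both the groups did not overlap. The Pgk1 probe set lies by number among probe sets of chromosome 12 genes, whereas the gene is on the X chromosome. In all, the probe sets used for 7 of the 94 related genes were numbered among those of another chromosome. These were Pgk1, Hk1 and Pkm of the glycolytic list, Bnip3, Bnip3l and Higd1a of the hypoxia-inducible list, and Mpc1. All of these genes except Mpc1 also had a probe set of lower mean numbered among those of their own chromosome, for Pgk1 10601390. The values of those other probe sets are not given here, so the Pgk1 difference is that of 1 probe set. Which locus the probe sets used match was not tested. The 14 other hypoxia-inducible genes had a median of 0.21 with 12 higher, among them Kdm3a, a histone demethylase, at 0.25 (limma adjusted p = 0.522), and P4ha1, a collagen prolyl hydroxylase, at 0.36 (0.569).

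Beyond pyruvate the list medians were smaller. The 13 genes of mitochondrial pyruvate entry had a median log2 difference of 0.09, with 8 higher. Pdk1, a kinase that switches off pyruvate dehydrogenase and is a known hypoxia-inducible gene, read 8.70 ± 0.08 in mutants and 8.42 ± 0.11 in controls (SD, n = 5 each), without overlap. Its log2 difference was 0.28 (95% interval 0.13 to 0.43) with a limma adjusted p of 0.569. Pdp1, the phosphatase that opposes it, had 0.27 (0.575), while Pdk2 had -0.18. NADH shuttles carry reducing power into mitochondria as an alternative to lactate formation. The 10 genes listed for them had a median of 0.05. This list also held the citrate carrier Slc25a1 (0.06), which is not part of a shuttle. Slc25a12, a mitochondrial aspartate carrier, had 0.15 (limma adjusted p = 0.626) and Gpd2 had 0.10 (0.699).

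**Figure D4:**
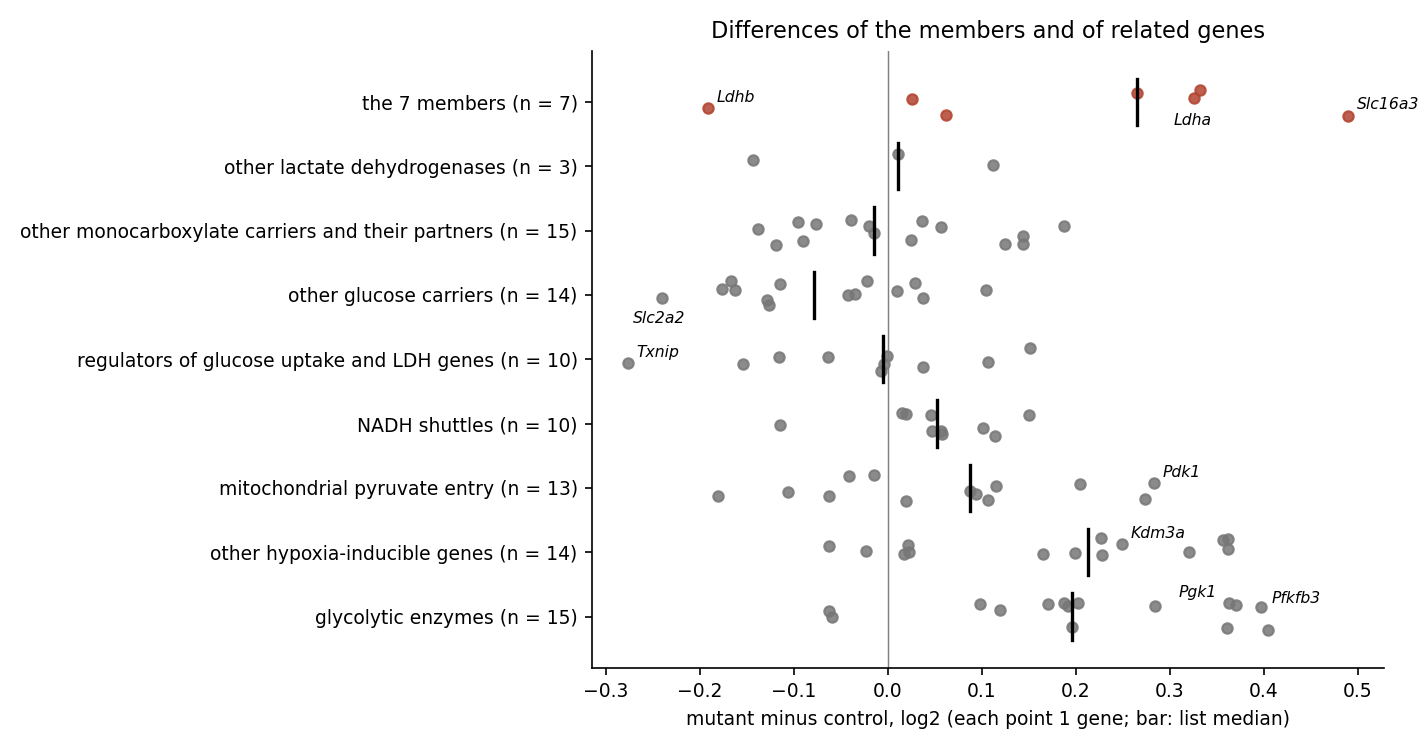
The log2 difference, mutant minus control, of the 7 members and of 94 related genes in 8 lists, each point 1 gene and each bar a list median. Glycolytic and hypoxia-inducible genes have medians of 0.20 and 0.21, other glucose carriers -0.08, and 0 of the 94 passed the limma threshold.

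Promoter sequence was examined because several of these genes are known hypoxia targets. RefSeq windows (GRCm38.p6) from 250 bases before to 50 after the gene start were at hand for 5 of the 7 members, and none for Slc2a3 and Bsg. The motif searched was the core of the hypoxia response element, ACGTG or GCGTG, on both strands, where overlapping matches were counted as 1 stretch. The E-box CACGTG contains this core on both strands. At least 1 stretch was present in 43.8% of 32851 windows, at least 2 in 17.2%, at least 4 in 2.33% and at least 5 in 0.7%. The windows below are those of the carrier and enzyme pairs whose members differed between the groups to unlike extents, with the core in capitals, 5′ to 3′ on the gene strand.
Ldha (chr7:46845554-46845853, + strand): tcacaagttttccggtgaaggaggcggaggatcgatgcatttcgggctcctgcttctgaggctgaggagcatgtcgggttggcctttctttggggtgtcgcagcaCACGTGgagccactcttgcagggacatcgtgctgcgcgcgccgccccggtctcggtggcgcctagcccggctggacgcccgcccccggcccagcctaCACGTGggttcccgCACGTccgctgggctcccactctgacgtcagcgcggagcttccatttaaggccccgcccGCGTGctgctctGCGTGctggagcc
Ldhb (chr6:142507908-142508207, - strand): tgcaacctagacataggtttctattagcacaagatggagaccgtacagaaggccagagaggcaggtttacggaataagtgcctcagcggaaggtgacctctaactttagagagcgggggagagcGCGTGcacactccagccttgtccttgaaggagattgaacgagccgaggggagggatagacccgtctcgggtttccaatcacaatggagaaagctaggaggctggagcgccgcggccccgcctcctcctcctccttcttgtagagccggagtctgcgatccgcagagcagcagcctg
Slc16a3 (chr11:120948817-120949116, + strand): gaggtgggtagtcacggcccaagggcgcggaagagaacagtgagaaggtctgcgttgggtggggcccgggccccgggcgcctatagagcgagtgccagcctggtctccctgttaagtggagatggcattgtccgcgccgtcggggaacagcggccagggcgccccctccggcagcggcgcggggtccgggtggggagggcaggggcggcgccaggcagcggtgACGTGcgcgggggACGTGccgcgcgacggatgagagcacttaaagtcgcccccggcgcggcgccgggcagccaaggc
Slc16a1 (chr3:104638414-104638713, + strand): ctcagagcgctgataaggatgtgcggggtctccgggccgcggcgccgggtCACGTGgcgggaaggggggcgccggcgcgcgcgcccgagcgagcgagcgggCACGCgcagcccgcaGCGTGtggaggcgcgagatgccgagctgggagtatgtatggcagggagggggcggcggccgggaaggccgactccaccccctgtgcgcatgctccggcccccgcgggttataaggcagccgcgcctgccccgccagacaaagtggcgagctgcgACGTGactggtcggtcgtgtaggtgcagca

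The upstream Ldha window held 5 stretches, of which 2 were CACGTG, and a second Ldha window further downstream held 2. The Ldhb window held 1 stretch. Slc16a3 held 2, at -27 and -14 from the start, and Slc2a1 also held 2. The Slc16a1 window held 4. The relation of these stretches to the signal differences was not tested. The Slc16a1 window had more CpG dinucleotides than 97.0% of all windows, and the upstream Ldha window more than 88.3%. A match to these letters does not show a bound site.

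**Figure D5:**
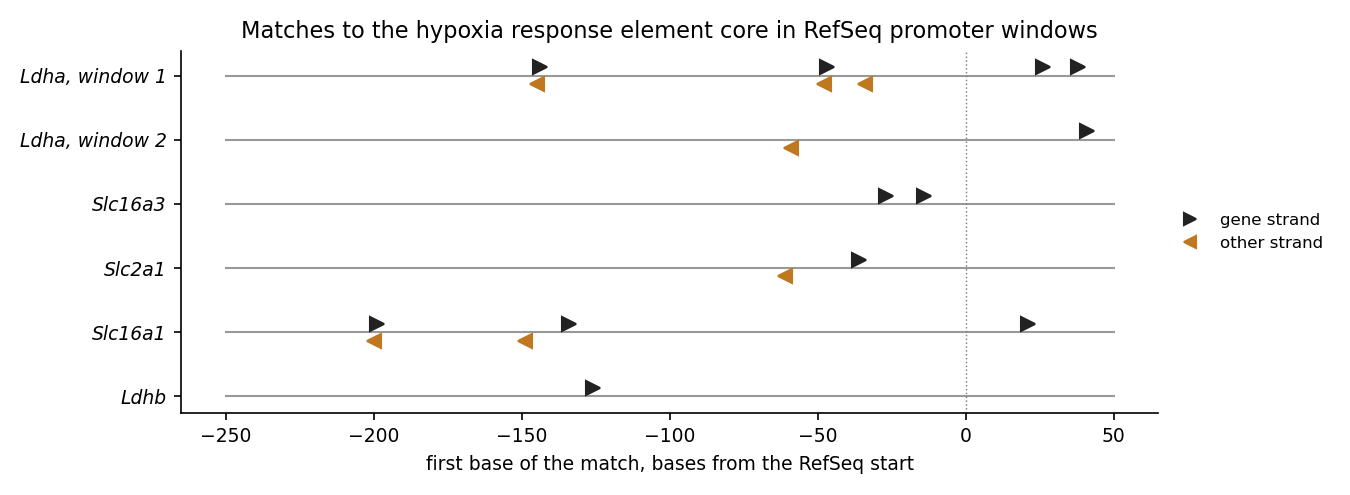
Positions of matches to the hypoxia response element core in the RefSeq promoter windows of 5 members, in bases from the gene start, with right-pointing marks for the gene strand and left-pointing marks for the other. The upstream Ldha window holds 5 separate stretches, Slc16a1 holds 4, Slc16a3 and Slc2a1 hold 2 each, and Ldhb holds 1.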

How the data were processed

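The log2 values were deposited by the authors. Per the submitters' processing notes they come from RMA, run in Affymetrix Expression Console 1.1, which subtracts background, quantile-normalizes the arrays together and combines the probes of a probe set. Array medians were 6.19 to 6.27, and the probe file version and genome build are not given in the sources used here. The number of arrays limits the precision, and no read depth exists.

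Of 35557 probe sets, 21789 had 1 gene symbol, of which 21698 were matched by gene id to RefSeq GRCm38.p6. The mutant to control comparison used limma 3.58.1 under R 4.3.3 (mean-variance trend, two-sided, Benjamini-Hochberg over the 21789). Simulated data with 100 probe sets changed by 0.5 and 100 by 1 for this comparison gave 82 and 96 recovered. There were 16 false calls, a share above the 5% that the threshold allows on average. The simulated noise was normal and independent between probe sets. Many planted changes also ease the adjusted threshold, whereas 2 genes passed in the data. The recovered shares are therefore not the power of the test on the real arrays.

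Members, lists and tests were chosen with earlier results of these data known. Named were the 7 members, Tbx1, from each pathway list its genes past the threshold or else the 2 of smallest p, and the 5 genes most like Ldha and most like the contrast. Further list genes were added after their values were seen. Listed genes not measured with 1 symbol, such as Gapdh and Eno1, were left out.

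Deviations from group means correlated at 0.122 to 0.247 between arrays of the same number, all above 0.1, while arrays of other numbers reached 0.382. Only 2 mutants correlated best with the control of their own number. These deviations still held the differences between array numbers given above, so the correlations cannot decide whether equal numbers are pairs. The main fit therefore did not use the numbers, and the replicate block is given as an alternative. Replicates are biological, per the labels.

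The alternatives were leaving out each array, further quantile normalization, median centring, the replicate block, eBayes without trend or robust, a filter on low signal, averaged probe sets and each set of array numbers. The second Ldhb probe set was added after the data were seen.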

Additional observations from a re-analysis of the deposited data

Results flagged for a closer look

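Of 80 groups of 5 values checked, 5 held an array far from the other 4, where chance gives about 4. None of them was a member or a contrast between members. Among related genes, P4ha1 was low in mutant 5, at a log2 signal of 9.668, and Kdm3a was low in control 5, at 9.369. Among marker means, mutant 5 was high in hindbrain and neural tube (7.754) and low in periotic mesenchyme (9.913), and mutant 4 was high in muscle (9.93).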

How the results depend on the processing

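Leaving out 1 array at a time gave a log2 difference of 0.300 to 0.353 for Ldha, of 0.479 to 0.545 for the Ldha minus Ldhb contrast, of 0.408 to 0.572 for Slc16a3, of 0.192 to 0.330 for Slc2a1, of 0.264 to 0.416 for Slc2a3 and of -0.240 to -0.144 for Ldhb. These 6 kept their sign under the further settings too, where the contrast ran from 0.473 to 0.545. The value of 0.473 is that with the second Ldhb probe set. The ranges without 1 array are for the first Ldhb probe set. With the second, the contrast was 0.37 within arrays 1 to 3 and 0.63 within arrays 4 and 5. The signs of Slc16a1 (-0.04 to 0.13) and Bsg (-0.03 to 0.07) turned in some. Related genes past the threshold numbered 0 in every setting, with 13 to 27 of the 94 at an unadjusted limma p under 0.05 over the settings. The count over all 19938 genes moved as well. It was 808 within arrays 4 and 5, where 13 related genes were found, and 1941 with the replicate block, where 27 were. Genes past the threshold numbered 2, and 2 without any 1 array, but 1 with the filter on low signal, 1 within the arrays numbered 1 to 3 and 0 within those numbered 4 and 5, where fewer arrays were fitted. With the replicate block the number past the threshold was 2, both shared with the fit without it, and related genes gave 0. Centring moved the median of all genes to -0.025. With 5 arrays a group, the standard errors of the members ran from 0.053 for Ldha to 0.125 for Slc2a1.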
